A study of Mus musculus with 24 samples.

Results

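Vitamin A acts in the embryo largely through its acid form, retinoic acid, and the 8 genes described here carry that signal inside the cell. Crabp1 and Crabp2 encode the cellular retinoic acid binding proteins, Rara, Rarb and Rarg the retinoic acid receptors, and Rxra, Rxrb and Rxrg the retinoid X receptors. They were taken by name from the 19351 genes that had at least 1 probe set naming a single gene, and each of the 8 was measured by 1 such probe set. No measured value was used as a rule for the choice, but earlier results of these data were known when it was made.

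The tissue was the developing diaphragm of C57BL/6J mouse embryos. The 24 samples, in 3 groups of 8, were cut by laser capture from frozen sections, each hybridised to its own Affymetrix Mouse Gene 1.0 ST array: pleuroperitoneal folds at E11.5 (E for embryonic day), pleuroperitoneal folds at E12.5, and muscularised diaphragm at E16.5. The pleuroperitoneal folds are paired ridges of mesenchyme that are covered by mesothelium, receive migrating muscle precursors and give rise to the diaphragm's connective tissue. All embryos were from timed pregnancies, with no mutation or treatment in the labels. Sections ran across the body at E11.5 and E12.5 and along it at E16.5, so the plane of section and the latest stage cannot be told apart. The RNA was amplified with the WT-Ovation Pico kit before labelling. The labels do not say whether the 8 samples of a stage were separate embryos or litters, so the p-values measure the spread between these samples, which may be partly technical.

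In the embryo, retinol brought by the carrier Rbp4 is oxidised to retinaldehyde, mainly by Rdh10, and then to retinoic acid by Aldh1a enzymes. Retinoic acid reaches the nucleus, where a retinoic acid receptor paired with a retinoid X receptor sits on DNA and exchanges corepressors for coactivators when the ligand binds. Crabp2 is known to deliver the ligand to the receptors, and Crabp1 is known for holding it in the cytoplasm and aiding its breakdown. In the diaphragm, lack of vitamin A, block of retinaldehyde dehydrogenase and loss of retinoic acid receptors are known causes of congenital hernia in rodents.

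One regulatory sequence links these genes to each other, because Rarb is a textbook target of its own pathway. The retinoic acid response element is a direct repeat of a hexamer related to AGGTCA, spaced by 1, 2 or 5 bases. The letters AGGTCA were searched on both strands, as were the variants AGTTCA with a T in the middle, GGGTCA with a leading G, and GGTTCA with these changes together. The search covered RefSeq windows running from 250 bases before to 50 after each start (build GRCm38.p6). These windows were present for 7 of the 8 genes, 14 windows in all, and 1 of the 14 held a direct repeat, in Rarb with a spacing of 5. The gene without a window was Crabp2, which was therefore not searched. The Rarb start that had a window lies inside the gene's span of chr14:16430839-17082331, not at its outer end. The stretch shown lies at chr14:16575477-16575626 on the minus strand, from 150 bases before that start to the base before it, and capitals mark the hexamers:
Rarb upstream stretch: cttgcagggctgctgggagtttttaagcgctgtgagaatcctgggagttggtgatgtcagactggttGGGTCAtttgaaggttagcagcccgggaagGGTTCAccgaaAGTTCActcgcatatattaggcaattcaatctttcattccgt
The direct repeat runs from base -53 to base -37, and the single hexamer upstream of it runs from base -83 to base -78. Repeats with a spacing of 5 were present in 32 of 32851 windows (0.0974%), those with a spacing of 1 in 73 (0.222%) and those with a spacing of 2 in 88 (0.268%). A single hexamer carries little information, since 43.7% of all windows held at least 1, as did 7 of the 14 windows of these genes. A match describes letters only, and no binding was measured in these samples.

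Values are log2 intensities, so a difference of 1 is a doubling, and brightness is not compared between probe sets, which differ in how well they bind. The array medians over all genes lay between 7.45 and 7.57 and the lower quartiles between 6.40 and 6.64. Among the 8 genes only Rxrg had an array below that array's lower quartile, 1 of 8 at E11.5. The labelled tissue was checked against marker lists, each summarised as the mean log2 value of its genes on an array. The skeletal muscle list of 12 genes lay between 8.17 and 9.57 on the E11.5 arrays, between 8.42 and 11.54 on the E12.5 arrays and between 12.19 and 12.70 on the E16.5 arrays. The fold and muscle connective tissue list, which includes Wt1, Gata4 and Pdgfra, ranged from 9.29 to 9.82, from 9.36 to 9.92 and from 9.12 to 9.41. That mean joins opposite moves, since 4 of its 12 genes were called higher and 6 lower from E12.5 to E16.5 (limma). Over all genes 15.6% were called lower and 2223 of 19351 higher in that comparison. The same background holds for the red blood cell and lung epithelium counts below. Wt1 went from a mean of 10.37 to 8.94 and Dcn from 10.50 to 11.76. Liver lies against the diaphragm, and the hepatocyte list lay between 6.82 and 7.17 on the E11.5 arrays, between 7.89 and 12.13 on the E12.5 arrays and between 9.78 and 11.88 on the E16.5 arrays. Of the other lists, the neuron list lay between 6.45 and 7.55 and the Schwann cell list between 6.90 and 7.90 over the 24 arrays, and the endothelium list between 7.72 and 8.34 in the folds and between 8.28 and 9.30 at E16.5. The mean of the red blood cell list (6 of 8 genes measured) was lower at E16.5, between 7.88 and 9.48 against 9.60 to 10.78 over both fold stages, with no overlap. Of its 6 genes, 2 were called lower and 0 higher from E12.5 to E16.5 (limma), with a median change of -0.06. The lung epithelium list reached at most 7.32 in the folds and 8.20 at E16.5. This mean also joins opposite moves, since 2 of its 8 genes were called higher and 1 lower from E12.5 to E16.5 (limma). Sftpc went from a mean of 5.80 at E12.5 to 10.60 at E16.5, and Sox9 from 9.29 to 8.37. The highest E16.5 array of Sftpc was 12.73. The part of the lung list in the changes of the 8 genes was not tested. The mesothelium list overlapped, at 7.86 to 8.92 in the folds and 7.67 to 8.71 at E16.5. Cardiomyocyte and macrophage lists overlapped between the stages, with highest values of 8.25 and 8.52 at E16.5. At E12.5 the hepatocyte list was highest on array 2 (12.13) and array 4 (10.49). For the 8 genes and the pathway lists below, calls and counts of called genes that changed without those arrays are given with both values. In such bulk samples, fewer cells of a type and less RNA per cell cannot be told apart.

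Both carriers were bright in the folds and far dimmer in the diaphragm. Crabp2 ranged from 11.37 to 12.39 at E11.5 with a median of 12.24, from 11.73 to 12.30 at E12.5 with a median of 12.23, and from 7.84 to 9.52 at E16.5 with a median of 8.12. No E16.5 array reached any fold array, and 7 of the 8 E16.5 arrays lay at or below 8.47. The stage means were 12.10 ± 0.34, 12.15 ± 0.19 and 8.27 ± 0.54 (SD, n = 8 each). Crabp2 fell by 3.89 ± 0.18 (SE) on the log2 scale from E12.5 to E16.5, 14.8-fold with a 95% interval of 11.4 to 19.2 (limma, adjusted p = 8.14e-14). From E11.5 to E16.5 the fall was 14.2-fold, with an interval of 10.9 to 18.5 (limma, adjusted p = 5.29e-14). The size of the first of these changes stood at percentile 99.8 of all genes, beside percentile 99.0 for Crabp1 and 95.6 for Rarb.

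Crabp1 also fell, with a wider spread at the last stage. It ranged from 11.65 to 13.16 at E11.5 with a median of 12.66, from 11.83 to 12.62 at E12.5 with a median of 12.38, and from 8.63 to 11.12 at E16.5 with a median of 9.99. The E16.5 arrays did not overlap those of either fold stage, but they spanned more than the arrays of both fold stages together. The means were 12.56 ± 0.48, 12.27 ± 0.32 and 9.98 ± 0.92 (SD, n = 8 each). Crabp1 fell 4.89-fold from E12.5 to E16.5, with a 95% interval of 3.22 to 7.44 (limma, adjusted p = 1.26e-06), and 5.96-fold from E11.5, with an interval of 3.92 to 9.07 (limma, adjusted p = 1.57e-07). The mean of the red blood cell list fell below its fold range over the same stages as the carriers. Its genes had a median change of -0.06 from E12.5 and of 0.03 from E11.5. On that list the globins Hbb-y and Hba-x went from means of 13.55 and 12.87 at E12.5 to 9.34 and 8.07 at E16.5. The part of the list in the change of the carriers was not tested. The fit shares 1 spread per gene over the stages, which for Crabp1 is smaller than that seen at E16.5.

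The gap between the carriers on the same array moved with stage. Crabp2 minus Crabp1 ranged from -0.96 to -0.12 at E11.5 with a median of -0.39, from -0.90 to 0.43 at E12.5 with a median of -0.13, and from -2.65 to -0.49 at E16.5 with a median of -1.55. Array 1 was the only E16.5 array within the range of the folds, and the other E16.5 arrays lay below every fold array. The difference between the falls was not tested. From E11.5 to E12.5 neither carrier was called, with a change of 0.06 for Crabp2 (95% interval -0.32 to 0.44; limma, adjusted p = 0.906) and of -0.28 for Crabp1 (-0.89 to 0.32; adjusted p = 0.663).

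**Figure D1:**
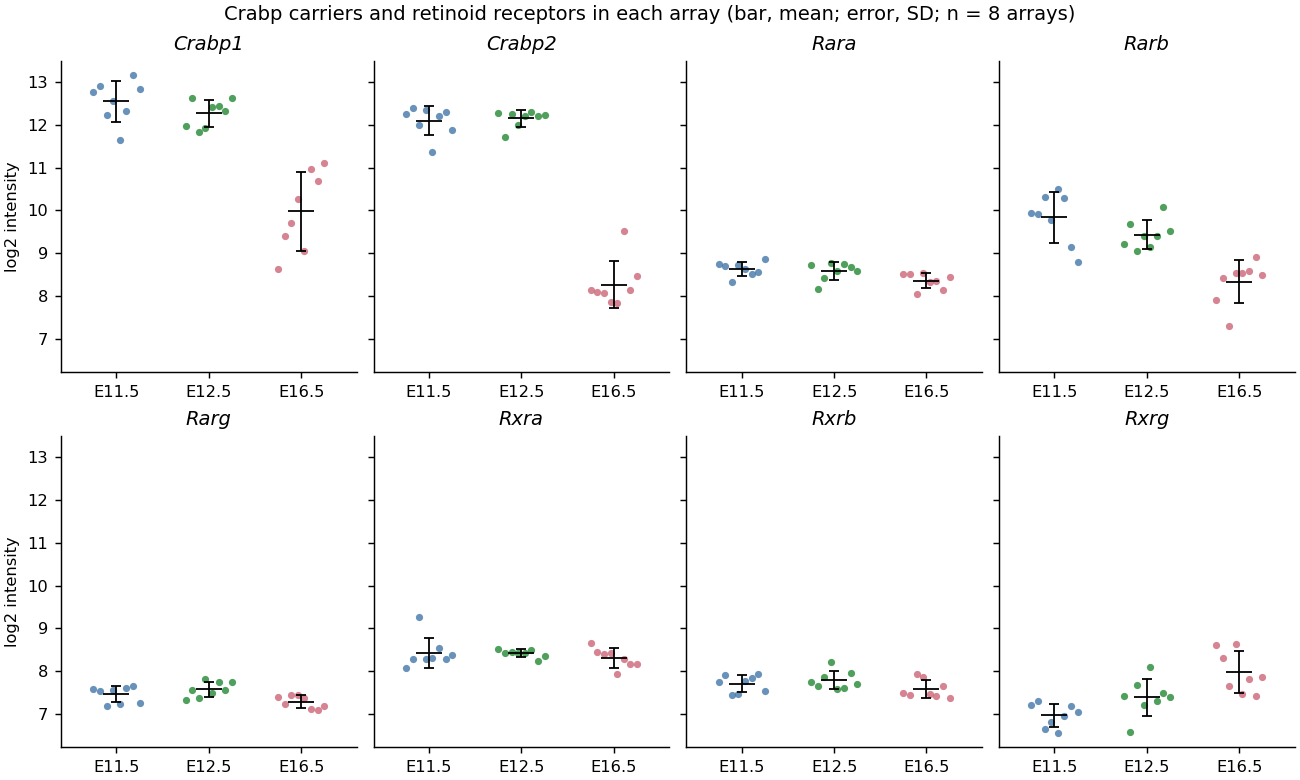
Log2 intensity of the 8 genes on each of the 24 arrays, by stage, with 1 panel per gene; points are arrays and the bars give the mean and SD of 8 arrays. The E16.5 arrays of Crabp1 (8.63 to 11.12) and Crabp2 (7.84 to 9.52) lie below all fold arrays, while the arrays of Rxra overlap at every stage.

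Among the retinoic acid receptors, Rarb moved most and the others little. Rarb, whose transcription is itself raised by retinoic acid, ranged from 8.79 to 10.51 at E11.5 with a median of 9.93, from 9.05 to 10.09 at E12.5 with a median of 9.40, and from 7.31 to 8.92 at E16.5 with a median of 8.52. All E16.5 arrays lay below all E12.5 arrays, whereas the highest E16.5 array (8.92) passed the lowest E11.5 array (8.79). The means were 9.84 ± 0.60, 9.44 ± 0.34 and 8.34 ± 0.50 (SD, n = 8 each). Rarb fell 2.14-fold from E12.5 to E16.5, with a 95% interval of 1.54 to 2.98 (limma, adjusted p = 0.000668), and 2.82-fold from E11.5, with an interval of 2.03 to 3.93 (limma, adjusted p = 1.44e-05). Its change from E11.5 to E12.5 was -0.40, with an interval of -0.88 to 0.08 (limma, adjusted p = 0.430). This is the gene whose upstream repeat is printed above.

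Rara, the broadly expressed retinoic acid receptor, kept a narrow range. It lay between 8.34 and 8.87 at E11.5 with a median of 8.66, between 8.17 and 8.78 at E12.5 with a median of 8.63, and between 8.06 and 8.55 at E16.5 with a median of 8.40. The arrays of the 3 stages overlapped. Rara was lower at E16.5 than at E11.5 by a log2 change of -0.27 (95% interval -0.46 to -0.08; limma, adjusted p = 0.0250). Against E12.5 the change was -0.22 (-0.41 to -0.03) and missed the threshold (adjusted p = 0.0796). The first call was lost without E11.5 array 8 (adjusted p = 0.0549), E16.5 array 3 (0.0594) or E16.5 array 7 (0.0542). The second comparison passed without E12.5 array 2 (change -0.28, adjusted p = 0.0148) and without E12.5 arrays 2 and 4 (-0.26, adjusted p = 0.0349).

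Rarg, known in the embryo for its place in cartilage and skin, lay between 7.19 and 7.65 at E11.5 with a median of 7.55, between 7.32 and 7.81 at E12.5 with a median of 7.56, and between 7.09 and 7.45 at E16.5 with a median of 7.30. These arrays overlapped too. Rarg was lower at E16.5 than at E12.5 by a log2 change of -0.29 (95% interval -0.47 to -0.11; limma, adjusted p = 0.0157), and this call was lost without E12.5 arrays 2 and 4 (-0.25, adjusted p = 0.0562). Against E11.5 the change was -0.17 (-0.35 to 0.01; adjusted p = 0.146).

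The retinoid X receptors did not follow the carriers. Rxrg, the member of the trio with the most restricted expression, found in skeletal muscle among other tissues, was the only gene of the 8 that rose. It ranged from 6.56 to 7.31 at E11.5 with a median of 7.0, from 6.57 to 8.09 at E12.5 with a median of 7.40, and from 7.41 to 8.64 at E16.5 with a median of 7.84. Every E16.5 array lay above every E11.5 array, while E12.5 overlapped both. The means were 6.96 ± 0.27, 7.39 ± 0.43 and 7.97 ± 0.49 (SD, n = 8 each). Rxrg rose 2.01-fold from E11.5 to E16.5, with a 95% interval of 1.53 to 2.65 (limma, adjusted p = 0.000206). From E12.5 to E16.5 the log2 change was 0.58 (0.18 to 0.98; limma, adjusted p = 0.0262). That second call was lost without E12.5 array 2 (adjusted p = 0.0614) or E16.5 array 1 (0.0639), array 2 (0.0548) or array 4 (0.0641), and without E12.5 arrays 2 and 4 together (0.122). From E11.5 to E12.5 the change was 0.43 (0.03 to 0.83; adjusted p = 0.312). The skeletal muscle list moved with stage in the same direction as Rxrg, and its part in the change was not tested.

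Rxra, the main retinoid X receptor of the early embryo, was not called in any comparison. It lay between 8.08 and 9.26 at E11.5 with a median of 8.30, between 8.23 and 8.52 at E12.5 with a median of 8.43, and between 7.93 and 8.66 at E16.5 with a median of 8.34. The arrays of the 3 stages overlapped. The change from E11.5 to E16.5 was -0.12, with a 95% interval of -0.37 to 0.13 (limma, adjusted p = 0.462). From E12.5 to E16.5 it was -0.11 (-0.36 to 0.14; adjusted p = 0.571), and from E11.5 to E12.5 it was -0.0089 (-0.26 to 0.24; adjusted p = 0.979).

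Rxrb, a widely expressed partner, was likewise not called. It lay between 7.43 and 7.92 at E11.5 with a median of 7.76, between 7.58 and 8.20 at E12.5 with a median of 7.72, and between 7.36 and 7.93 at E16.5 with a median of 7.49. Its change from E12.5 to E16.5 was -0.21, with a 95% interval of -0.42 to 0.0054 (limma, adjusted p = 0.152). From E11.5 to E16.5 it was -0.12 (-0.33 to 0.09; adjusted p = 0.385). These intervals are the sizes of change that the arrays leave room for.

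**Figure D2:**
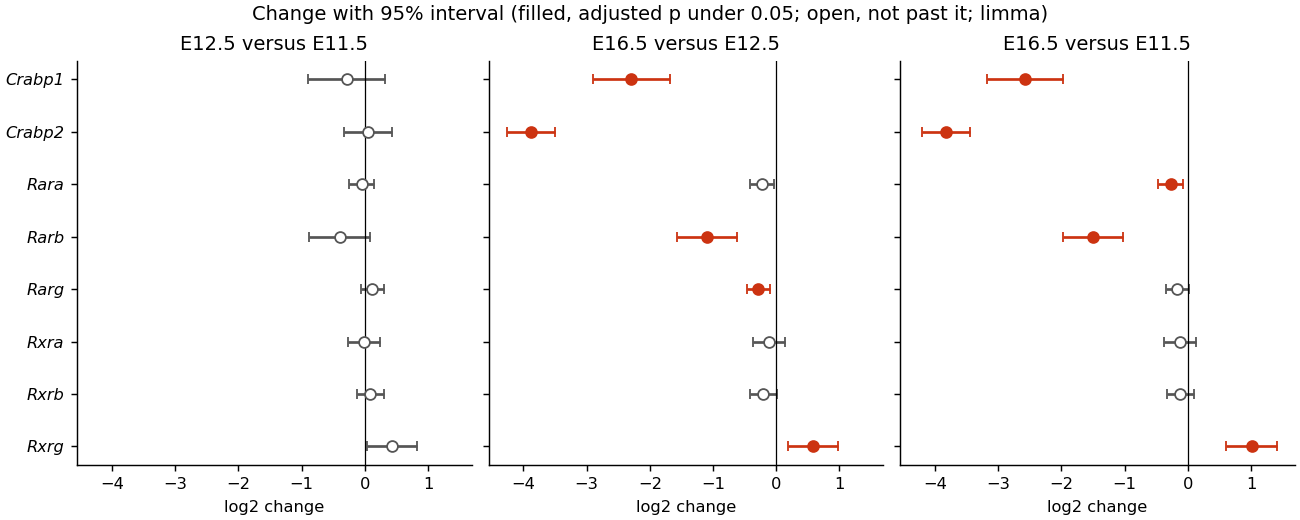
Log2 change of each of the 8 genes in the 3 comparisons, with 95% intervals from limma; filled points passed an adjusted p of 0.05 and open points did not. Crabp2, Crabp1 and Rarb lie to the left in both comparisons with E16.5, Rxrg lies to the right, and no gene is filled for E12.5 versus E11.5.

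Counted together, 0 of the 8 genes were called between E11.5 and E12.5, against a background of 0.388% of all genes, and Rxrg was the 1 gene with an unadjusted p under 0.05 (limma), against 14.4% of all genes. Between E12.5 and E16.5, 5 of 8 were called, where the background was 27.1% (4 of 8 and 25.9% without E12.5 arrays 2 and 4). Of the 5 genes, 4 were lower (Crabp1, Crabp2, Rarb and Rarg, background 15.6%) and Rxrg was higher, as were 2223 of the 19351 genes. Between E11.5 and E16.5, 5 of 8 were again called (background 33.5%), with Rara in the place of Rarg: 4 were lower (background 19.6%) and Rxrg was higher, as were 2680 of all genes. The arrays did not overlap for 3 of 8 genes for E16.5 against E12.5 (Crabp1, Crabp2 and Rarb; background 10.1%) and for 3 of 8 for E16.5 against E11.5 (Crabp1, Crabp2 and Rxrg; background 9.08%). The median change of the 8 genes was 0.02, -0.25 and -0.22 for E12.5 against E11.5, E16.5 against E12.5 and E16.5 against E11.5, beside -0.03, -0.02 and -0.08 for all genes. Both comparisons with E16.5 share those arrays, so their calls are not independent.

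The E16.5 arrays fell into uneven sets by replicate number. That division was known from earlier results on these arrays, the labels do not mention it, and its differences are a description. Crabp1 ranged from 8.63 to 10.26 on arrays 1 to 4 and from 9.05 to 11.12 on arrays 5 to 8, a mean difference of -0.95. Crabp2 differed by -0.45 and Rarb by -0.60. With single arrays left out, a check added after the data were seen, the Crabp2 difference was -0.11 without array 6, the highest, and the Rarb difference was -0.35 without array 3, the lowest. The Crabp1 and Rxrg differences moved by less than 1.5 times. Rxrg differed the other way by 0.66, from 7.65 to 8.64 on arrays 1 to 4 and from 7.41 to 7.85 on arrays 5 to 8. Rxra was the only 1 of the 8 genes whose sets did not overlap, at 8.40 to 8.66 against 7.93 to 8.28. The share of all genes whose sets did not overlap was not counted, so this count has no background. Rara, Rarg and Rxrb differed by 0.091, 0.19 and 0.21; without single arrays Rara ranged from 0.030 to 0.21, and Rxrb was 0.12 without array 3.

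Marker lists differed between the same sets. The skeletal muscle list had a median of 12.67 on arrays 1 to 4, where no array was as low as any of arrays 5 to 8, and of 12.34 on arrays 5 to 8, and the endothelium list was 8.99 to 9.30 against 8.28 to 8.67. The fold and muscle connective tissue list overlapped, at 9.12 to 9.41 against 9.25 to 9.40. The red blood cell list was 7.88 to 8.60 on arrays 1 to 4 and 8.89 to 9.48 on arrays 5 to 8, without overlap and lower on the arrays where Crabp1 and Rarb were lower on average. The mesothelium list had medians of 8.02 and 8.67. The part of these lists in the spread of Crabp1, Rarb and Rxrg was not tested. The falls of the carriers and Rarb were called with either set left out. Without arrays 1 to 4 the E16.5 versus E12.5 changes were -1.81 for Crabp1 (limma, adjusted p = 0.000204), -3.66 for Crabp2 (5.66e-10) and -0.80 for Rarb (0.0330). Without arrays 5 to 8 they were -2.77, -4.11 and -1.40. Rxrg rose from E11.5 with either set left out, by 0.68 (adjusted p = 0.0163) or 1.34, but against E12.5 it was called only without arrays 5 to 8 (0.91, adjusted p = 0.00322) and not without arrays 1 to 4 (0.25, adjusted p = 0.477). The Rarg call of E16.5 against E12.5 was lost without arrays 5 to 8 (-0.19, adjusted p = 0.237), as was the Rara call against E11.5 (-0.23, adjusted p = 0.164).

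**Figure D3:**
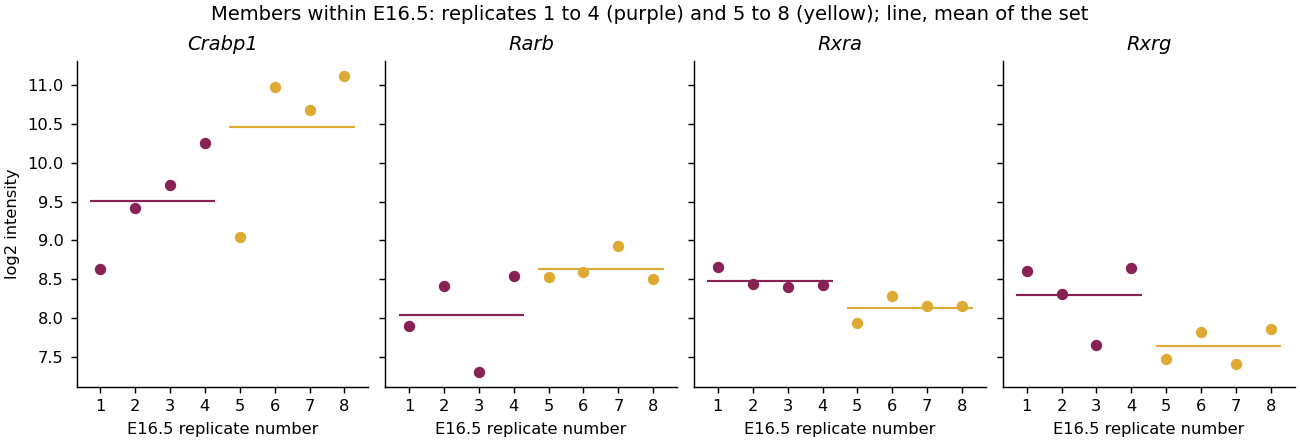
Log2 intensity of Crabp1, Rarb, Rxra and Rxrg on the 8 E16.5 arrays, split into arrays 1 to 4 and 5 to 8, with a line at each set's mean. Among the genes shown, only the sets of Rxra are apart (8.40 to 8.66 against 7.93 to 8.28). Crabp1 is lower and Rxrg higher on average on arrays 1 to 4.

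The genes that supply and clear the ligand were taken as a list of 18, of which 17 were measured. Between E11.5 and E12.5, 1 was higher and 0 were lower, and the 1 was Rbp4 (log2 change 2.22 ± 0.42 SE; limma, adjusted p = 0.0161), a call lost when the fit held only those 2 stages (adjusted p = 0.0647). The count higher was 2 without E12.5 array 2 alone and also without E12.5 arrays 2 and 4. Over all genes 0.388% were called. Rbp4 is also an abundant liver transcript and its E12.5 values had an SD of 1.30; the hepatocyte list moved with it, and its part was not tested. Between E12.5 and E16.5, 3 were higher (5 without E12.5 arrays 2 and 4) and 6 lower, where 2223 of the 19351 genes were higher and 15.6% were lower. The retinoic acid making enzyme Aldh1a2 fell by 2.12 on the log2 scale (adjusted p = 4.21e-05) and Rdh10, which makes retinaldehyde, fell by 1.86 (adjusted p = 4.94e-06). In the other direction the alcohol dehydrogenase Adh1 rose by 2.64 (limma, adjusted p = 0.000293) and the thyroxine and Rbp4 carrier Ttr, itself on the hepatocyte list, by 2.56 (adjusted p = 0.000157). The E12.5 values of Adh1 had an SD of 1.62. The mean of the hepatocyte list also rose, from 9.23 at E12.5 to 11.25 at E16.5, and its part in the Adh1 change was not tested. Between E11.5 and E16.5, 4 were higher (5 without E12.5 arrays 2 and 4) and 6 lower, where 2680 of all genes were higher and 19.6% were lower. Aldh1a2 changed by -2.78 (limma, adjusted p = 7.40e-07), Adh1 by 3.37 (1.19e-05), Rbp4 by 3.43 (4.68e-07) and Ttr by 4.43 (5.09e-08). The list's median change was 0.06, 0.04 and -0.0063 in the 3 comparisons.

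Of 14 measured coregulators, the proteins that the receptors recruit, 1 was higher and 8 were lower at E16.5 than at E12.5, with a median of -0.42, and 2 were higher and 9 lower than at E11.5, with a median of -0.38. Over all genes 15.6% were lower and 2223 of 19351 higher than at E12.5, and 19.6% lower and 2680 higher than at E11.5. The coactivator methyltransferase Carm1 fell by 0.87 on the log2 scale from E12.5 (limma, adjusted p = 3.47e-06), as did Tbl1x, a part of the corepressor complex (0.87, adjusted p = 9.20e-06). Its relative Tbl1xr1 fell by 0.54 (adjusted p = 0.000170). The acetyltransferase Kat2b rose by 0.69 (adjusted p = 0.00145). Between E11.5 and E12.5, 1 was higher and 0 lower, where 0.388% of all genes were called. The 1 was the coactivator Ncoa1 at 0.60 (limma, adjusted p = 0.0370), which lost the call in 16 of 36 alternatives, 11 of them a single array left out.

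Other nuclear receptors that pair with the retinoid X receptors numbered 12 measured. None was called between E11.5 and E12.5 (limma, 2 with an unadjusted p under 0.05). Over all genes 0.388% were called there and 14.4% had an unadjusted p under 0.05. In each comparison with E16.5, 4 were higher and 0 lower, with medians of 0.20 against E12.5 and 0.15 against E11.5. Of all 19351 genes, 2223 and 2680 were higher, and 15.6% and 19.6% were lower. The count higher ranged from 1 to 4 against E12.5 and from 1 to 6 against E11.5 over the alternatives. Without E12.5 arrays 2 and 4 it was 3 against E12.5 and 6 against E11.5. Against E12.5 it was 2 without E12.5 array 4, E12.5 array 5, E16.5 array 4 or E16.5 arrays 1 to 4. The fatty acid sensor Ppara rose by 1.12 from E12.5 (adjusted p = 8.60e-05), from values below the lower quartile on 7 of 8 arrays. Ppara differed between the E16.5 sets, with a rise of 0.55 without arrays 1 to 4 (adjusted p = 0.00199) and of 1.69 without arrays 5 to 8. The thyroid hormone receptor Thra rose by 0.61 from E11.5 (adjusted p = 0.000101) and by 0.32 from E12.5 (0.0280), the latter lost in 8 of 36 alternatives, among them E12.5 arrays 2 and 4 left out (0.27, adjusted p = 0.10) and E16.5 arrays 1 to 4 left out (0.17, adjusted p = 0.422). Nr4a1, an orphan receptor below the lower quartile on 6 of 8 arrays at each fold stage, changed by 0.58 from E12.5 (adjusted p = 0.0493), a call lost in 25 of 35 alternatives, among them E12.5 arrays 2 and 4 left out (0.59, adjusted p = 0.0830) and E16.5 arrays 1 to 4 left out (0.25, adjusted p = 0.178). Pparg, known from fat cells, was higher by 0.40 than at E11.5 (adjusted p = 0.0211), which was lost without E16.5 arrays 1 to 4 (adjusted p = 0.306). The xenobiotic receptor Nr1i2 was called at 0.22 from E12.5 (adjusted p = 0.0147), although it lay below the lower quartile on 8 of 8 arrays there, and it lost the call without E16.5 arrays 5 to 8 (0.19, adjusted p = 0.121).

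The 17 measured retinoic acid target genes include Rarb and Crabp2 themselves. They also include Dhrs3, Cyp26a1, Cyp26b1 and Stra6 from the list that supplies and clears the ligand, and Nrip1 from the coregulators. Their count is therefore not separate from the results above. None was called between E11.5 and E12.5 (limma, 6 with an unadjusted p under 0.05). Over all genes 0.388% were called there and 14.4% had an unadjusted p under 0.05. From E12.5 to E16.5, 1 was higher and 9 lower (10 without E12.5 arrays 2 and 4), with a median of -0.31. From E11.5 to E16.5, 1 was higher and 11 lower, with a median of -0.49. Over all genes 15.6% were lower and 2223 of 19351 higher in the first of these comparisons, and 19.6% lower and 2680 higher in the second. The homeobox genes Meis1 and Meis2 fell by 1.63 (adjusted p = 1.43e-11) and 1.69 (2.64e-09) on the log2 scale from E12.5. The 1 that rose was Tgm2, a transglutaminase raised by retinoic acid in many cells, by 1.94 (adjusted p = 9.76e-08).

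**Figure D4:**
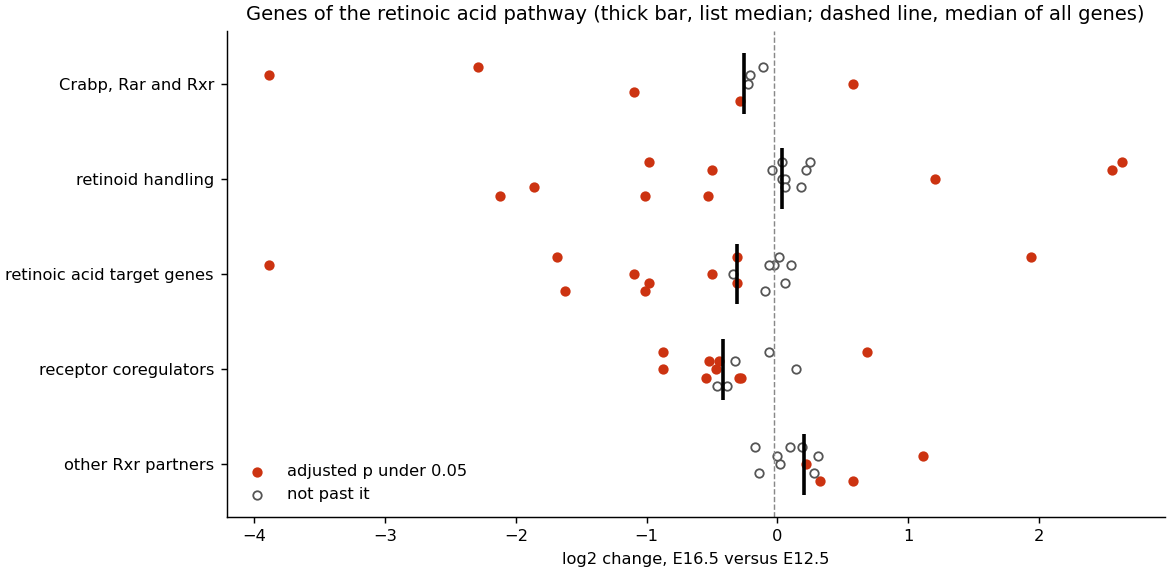
Log2 change of E16.5 against E12.5 for the measured genes of the 4 pathway lists and the 8 genes; filled points passed an adjusted p of 0.05 in limma. Filled points among the coregulators (1 higher, 8 lower) and target genes (1 higher, 9 lower) lie mostly to the left, and those among the other partners (4 higher, 0 lower) to the right.

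For each gene called at least once, the most similar genes were those with the smallest root mean square difference over the 24 arrays, after each gene's mean was subtracted. Crabp2 lay nearest to Fat3 at 0.476, Rimklb at 0.559 and Mpped2 at 0.571, beside its own SD over the 24 arrays of 1.85. Crabp1 lay nearest to Robo1 at 0.489, Meis2 at 0.518 and then Mdk, beside an SD of 1.29. Meis2 is on the retinoic acid target list. Rarb lay nearest to Zik1 at 0.376, Slc1a3 at 0.380 and Smarcad1 at 0.394 (SD 0.782), and Rxrg to Gsn at 0.287, Tmtc1 at 0.302 and Gprc5b at 0.312 (SD 0.562). Rara (SD 0.209) lay nearest to Mest at 0.131, and Rarg (SD 0.200) to Apbb1 at 0.139, distances that are large beside the genes' own spread. All these values come from the same 24 arrays and mostly follow the stage.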

How the data were processed

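The 24 arrays, 8 per stage, were grouped by the stage in the labels. The authors deposited log2 intensities per probe set. The submitters' processing notes name RMA, Affymetrix Expression Console 1.1 and R 2.9.2, without roles. The log2 scale was read from the values' range, and whether all arrays were normalized together is not given in the sources used here. Of 24200 probe sets, 20760 named 1 gene in the platform annotation, 1140 several and 2300 none. A gene took its single-gene probe set with the highest mean (804 of 19351 genes had several). Symbols were matched to RefSeq GRCm38.p6, and 13 of 167 list entries were unmatched.

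Stages were compared with limma 3.58.1 (R 4.3.3): 1 coefficient per stage over all 24 arrays, no covariates, empirical Bayes moderation, two-sided, Benjamini-Hochberg adjustment over 19351 genes, threshold 0.05. The fit was tested on simulated data. The genes, lists and alternatives were chosen with earlier results of these data known. Named were all 8 genes, per pathway list and comparison up to 4 called genes with the largest change, list means for cell types, and up to 3 most similar genes per called gene. The number of arrays limits the precision. Alternatives were 12 other settings and 24 single arrays left out; leaving single arrays out of the E16.5 set means was added after the data were seen.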

Additional observations from a re-analysis of the deposited data

Results flagged for a closer look

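In 24 combinations of gene and stage, the highest or lowest array's gap to its neighbour was compared with the whole range, and 2 passed Dixon's 95% critical value; chance flags about 1 in 20. Crabp2 at E16.5 was 9.52 on array 6, with the next array at 8.47, a gap of 0.627 of the range. Without that array Crabp2 changed by -4.07 against E12.5. Rxra at E11.5 was 9.26 on array 3, with the next array at 8.53, a gap of 0.616 of the range. Without it the Rxra change from E11.5 to E12.5 was 0.11 and still not called.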

How the results depend on the processing

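Of the 24 changes of the 8 genes, 10 were called, and 7 of the 10 were called under all alternatives that held the gene; none of the 10 reversed. With single arrays left out, the number of genes called ranged from 0 to 0 for E12.5 versus E11.5, from 4 to 5 for E16.5 versus E12.5 and from 4 to 5 for E16.5 versus E11.5. With the dimmest 50% of genes left out, 3 were called for E16.5 versus E12.5, because Rarg and Rxrg were no longer tested. Changes that were not called took the other sign as follows. For E12.5 versus E11.5, Crabp2 was -0.0013 after quantile normalization, -0.014 after centring on the 75th percentile and -0.045 without E11.5 array 5 (single arrays left out, -0.045 to 0.12); Rxra was 0.11 without E11.5 array 3, 0.0060 without E11.5 array 6 and 0.02 without E12.5 array 7 (-0.058 to 0.11); Rara was 0.0092 without E12.5 array 2 (-0.093 to 0.0092). Without E16.5 arrays 5 to 8, Rxra was 0.061 against E12.5 and 0.052 against E11.5. The cause was not tested. Replicate numbers did not pair the arrays: same-numbered arrays had correlations of their deviations from -0.28 to 0.09 in 24 pairs, and 2 of 24 correlated best with their own number. With the number as a replicate block, 0, 4 and 5 genes were called, and Rxrg lost its call for E16.5 versus E12.5 (adjusted p = 0.0566). Of the other partners, 2 rather than 4 were then higher. No scaling moved the median of all genes by over 0.1.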
